A study of Mus musculus with 4 samples.

Results

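Imprinted genes were followed across 4 mouse livers that differ in the ribosomal protein gene Rps6 and in a c-Myc transgene. Imprinted genes were chosen by name, as a list of 42 genes at 19 imprinted loci that holds genes known for fetal growth control and genes that are not, and 38 of the 42 were represented on the array, among 19324 genes that the platform annotation names. No probe set was annotated to Rtl1, Dio3, Zrsr1 or Peg13. A log2 value below 6 was treated as dim, that is, not shown to be above background, and 31 of the 38 reached 6 on at least 1 array. The list was not chosen on the measured values, although results of these arrays were known when it was drawn up.

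The genotypes were compared, all non-fasted males of 5 weeks per the labels, on a mixed hybrid background. ΔS6:c-Myc mice (labelled DS6 Myc) carry the Rps6 lox/lox and Alb-Cre alleles of ΔS6 mice and the albumin-driven c-Myc transgene. ΔS6 mice (labelled DS6) are Rps6 lox/lox:Alb-Cre animals in which the Cre recombinase acts from the hepatoblast stage. Deletion of Rps6 is incomplete in livers of both genotypes. The authors reported more recombination in ΔS6:c-Myc than in ΔS6 livers, with less Rps6 mRNA but unchanged RPS6 protein. Alb-c-Myc mice (labelled Myc) carry the transgene with intact Rps6, and whether they also carry lox alleles or Cre is not given in the sources used here. WT mice are Cre-negative. RNA of the livers of 3 mice was combined in equal amounts for 1 Affymetrix array per genotype, so animals could not be told apart, no spread between animals was available and no test between genotypes was run. A difference is called here when 2 arrays differ at least 2-fold, a log2 ratio of 1 or -1, and ratios are written as ΔS6/WT for the value in ΔS6 over that in WT. In such bulk RNA, a change in the number of cells of a type and a change in RNA per cell cannot be told apart.

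An imprinted gene is expressed mainly from the chromosome inherited from 1 parent, under the control of DNA regions that are methylated in the egg or the sperm and keep that mark after fertilization. Many imprinted genes act on fetal growth, the paternally expressed ones often promoting and the maternally expressed ones often restraining it, and a group of them is silenced in liver and other organs in the weeks after birth. Mouse work has described a network in which growth-related imprinted genes are co-regulated, with the zinc finger protein Plagl1 (Zac1) as 1 of its regulators. The arrays measure total RNA, so which parental allele was expressed was not measured.

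Sequences from loci that differed between the arrays are given first. The H19 transcript, at chr7:142575530-142578146 (GRCm38.p6, annotated as a long noncoding RNA), is the host of a microRNA hairpin, and the probe set that reads H19 is annotated to Mir675 as well. Igf2, at chr7:142650768-142666816 on the same strand and 72621 bases from H19, hosts another. The 4 mature products in RefSeq are printed 5′ to 3′ with the seed, bases 2 to 8, in capitals. They show which small RNAs are encoded within these transcripts; the small RNAs themselves were not measured.
mmu-miR-675-5p: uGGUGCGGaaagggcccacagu
mmu-miR-675-3p: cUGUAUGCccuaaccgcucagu
mmu-miR-483-5p: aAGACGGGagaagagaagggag
mmu-miR-483-3p: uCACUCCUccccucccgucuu
The 4 seeds differ from each other, and each is held by 1 of the 1738 mature mouse miRNAs in the RefSeq table, the miRNA named.

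Promoters are given for 4 growth-related members whose transcripts differed between the arrays, as 300 bases of RefSeq sequence (GRCm38.p6) that run from 250 bases before the start to 50 after it, and of several windows of a gene that with the most motif matches is printed. Capitals mark 3 motifs searched on both strands, namely TGCCGC, the core bound by the imprint-protecting zinc finger protein Zfp57, GGGGCCCC, a motif of Plagl1, and TATAAA, the TATA box. The Meg3 window at chr12:109540746-109541045, plus strand, held TGCCGC on the reverse strand at base 61 and overlapping TATAAA matches that begin at bases 222 and 226.
Meg3: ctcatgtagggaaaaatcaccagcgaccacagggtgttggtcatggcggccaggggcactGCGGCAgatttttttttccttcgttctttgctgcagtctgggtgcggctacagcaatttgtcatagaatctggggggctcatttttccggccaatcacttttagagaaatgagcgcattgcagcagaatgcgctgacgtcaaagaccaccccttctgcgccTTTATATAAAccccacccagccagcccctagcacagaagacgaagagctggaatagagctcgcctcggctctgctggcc
The Peg3 window at chr7:6730370-6730669, minus strand, held GGGGCCCC at base 50.
Peg3: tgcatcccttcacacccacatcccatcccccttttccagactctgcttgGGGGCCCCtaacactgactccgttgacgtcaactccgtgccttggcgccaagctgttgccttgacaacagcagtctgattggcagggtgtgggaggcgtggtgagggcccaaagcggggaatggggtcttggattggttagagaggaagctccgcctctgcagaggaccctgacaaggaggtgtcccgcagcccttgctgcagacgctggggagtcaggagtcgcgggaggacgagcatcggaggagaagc
The Igf2 window at chr7:142661222-142661521, minus strand, is that of 1 of 4 annotated start sites, and held TGCCGC on the reverse strand at base 281.
Igf2: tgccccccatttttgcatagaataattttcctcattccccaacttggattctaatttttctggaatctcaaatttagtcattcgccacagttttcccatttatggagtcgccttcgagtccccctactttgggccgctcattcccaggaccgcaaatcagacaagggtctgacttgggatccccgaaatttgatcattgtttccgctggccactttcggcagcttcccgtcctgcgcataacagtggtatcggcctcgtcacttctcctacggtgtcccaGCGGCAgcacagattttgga
The Plagl1 window at chr10:13090582-13090881, plus strand, held TGCCGC on the reverse strand at base 161.
Plagl1: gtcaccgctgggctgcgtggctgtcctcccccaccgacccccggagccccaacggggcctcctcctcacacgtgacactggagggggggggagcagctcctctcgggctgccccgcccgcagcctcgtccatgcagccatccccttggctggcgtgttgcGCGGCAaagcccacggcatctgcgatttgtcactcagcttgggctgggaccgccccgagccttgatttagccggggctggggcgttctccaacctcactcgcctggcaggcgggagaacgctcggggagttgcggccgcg
Over the list, TGCCGC was found in 13 of 49 windows of members (26.5%), against 11.6% of all 32851 windows. The Mest windows with a match begin at chr6:30737800 and chr6:30737803, so they cover nearly the same DNA. By gene, TGCCGC was found in 12 of 33 members with an entry, against 13.1% of 27025 genes. The 12 were Calcr, Commd1, Copg2, Grb10, Igf2, Meg3, Mest, Nap1l5, Nnat, Plagl1, Snrpn and Zim1. GGGGCCCC was found in 3 of 49 windows, those of Peg3, Usp29 and Rasgrf1, against 1.08% of all windows. The windows of Peg3 and Usp29, genes transcribed away from each other, share 263 bases, so these 2 matches are 1 stretch of DNA. TATAAA was found in 11 of 49 member windows, against 13.6% of all. Among these, the Gnas windows that begin at chr2:174327499 and chr2:174327518 largely overlap. Member windows held a median of 15 CpG dinucleotides and all windows a median of 7. A match of letters is a description of the sequence, and binding was not measured.

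Before the members, the arrays themselves were examined. They held 45101 probe sets with medians from 6.85 to 6.88. For Rps6, read by 9 probe sets that also match its pseudogene Rps6-ps4, the ratio was below 0 on 9 of 9 both for ΔS6/WT, with a median of -0.29, and for ΔS6:c-Myc/Alb-c-Myc, with a median of -1.76. Of the 2 probe sets annotated to Rps6 alone, 1 had ratios of -0.79 in ΔS6/WT and -2.48 in ΔS6:c-Myc/Alb-c-Myc, and the other ran the opposite way, with 1.47 and 2.59. Hepatocyte markers (Alb, Ttr, Apoa1, Tat and Cyp2e1) were all within 2-fold in ΔS6/WT, with the lowest ratio, -0.69, for Cyp2e1. Alb, Ttr and Apoa1 lay near the top of the scale on all arrays, so a difference in them could be missed. The authors reported other mature liver genes, among them cytochrome P450s and major urinary proteins, as lower in ΔS6. The WT array stands apart in 2 ways. Xist, the RNA that silences 1 X chromosome in females, was at 6.33 in ΔS6:c-Myc, 5.88 in ΔS6, 6.29 in Alb-c-Myc and 11.84 in WT, although the labels describe all mice as males. The Y-linked genes Eif2s3y, Kdm5d and Uty were also read in WT, at 8.67, 7.70 and 7.73, within 2-fold of each other array. The 6 measured exocrine pancreas markers summed on the linear scale to 472 in ΔS6:c-Myc, 384 in ΔS6, 697 in Alb-c-Myc and 5000 in WT. Counts of members past 2-fold against WT are therefore also given against Alb-c-Myc, the other array with intact Rps6.

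In ΔS6 liver, the imprinted genes that differed at least 2-fold from WT were all higher, and most imprinted genes were within 2-fold. Of the 38 measured members, 11 reached 2-fold above WT and 0 reached 2-fold below it, where 7.36% of all genes were higher and 2.52% were lower. The 11 were H19, Igf2, Cdkn1c, Meg3, Peg3, Plagl1, Grb10, Sgce, Nnat, Airn and Dcn, and they lie at 10 of the 19 loci. H19, Igf2 and Peg3 were at least 8-fold higher, as were 0.642% of all genes. The other 27 measured members were within 2-fold. Over the 38 members the median log2 ratio was 0.25, against -0.05 over all genes, and 28 of the 38 ratios were above 0, against 8594 of 19324 for all genes. Against Alb-c-Myc in place of WT, 12 members were at least 2-fold higher in ΔS6 and 0 lower (7.11% and 2.18% of all genes), and these hold all 11 named above with the noncoding RNA Rian. On both sides of the 2-fold line lay Dcn, with a ratio of 1.04, and Mest, with 0.95.

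With the c-Myc transgene alone, no member reached 2-fold, and few of all genes did, so the count of members lies near the share of all genes. In Alb-c-Myc/WT, 0 of 38 members were at least 2-fold higher and 0 lower (0.45% and 0.383% of all genes), with ratios from -0.56 for Plagl1 to 0.54 for H19 and a median of -0.02. With both changes, 4 members were 2-fold or more higher in ΔS6:c-Myc/WT, namely H19, Igf2, Grb10 and Igf2r, and 0 were lower (3.13% and 1.79% of all genes). In ΔS6:c-Myc/Alb-c-Myc, made from the 2 arrays not used for ΔS6/WT, the 3 members at least 2-fold higher were H19, Igf2 and Grb10, and 0 were lower (2.14% and 1.38% of all genes). Relative to ΔS6, ΔS6:c-Myc liver had 7 members at least 2-fold lower and 0 higher, where 4.36% of all genes were lower and 0.875% were higher. Those 7 were Igf2, Meg3, Peg3, Mest, Plagl1, Sgce and Nnat.

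**Figure D1:**
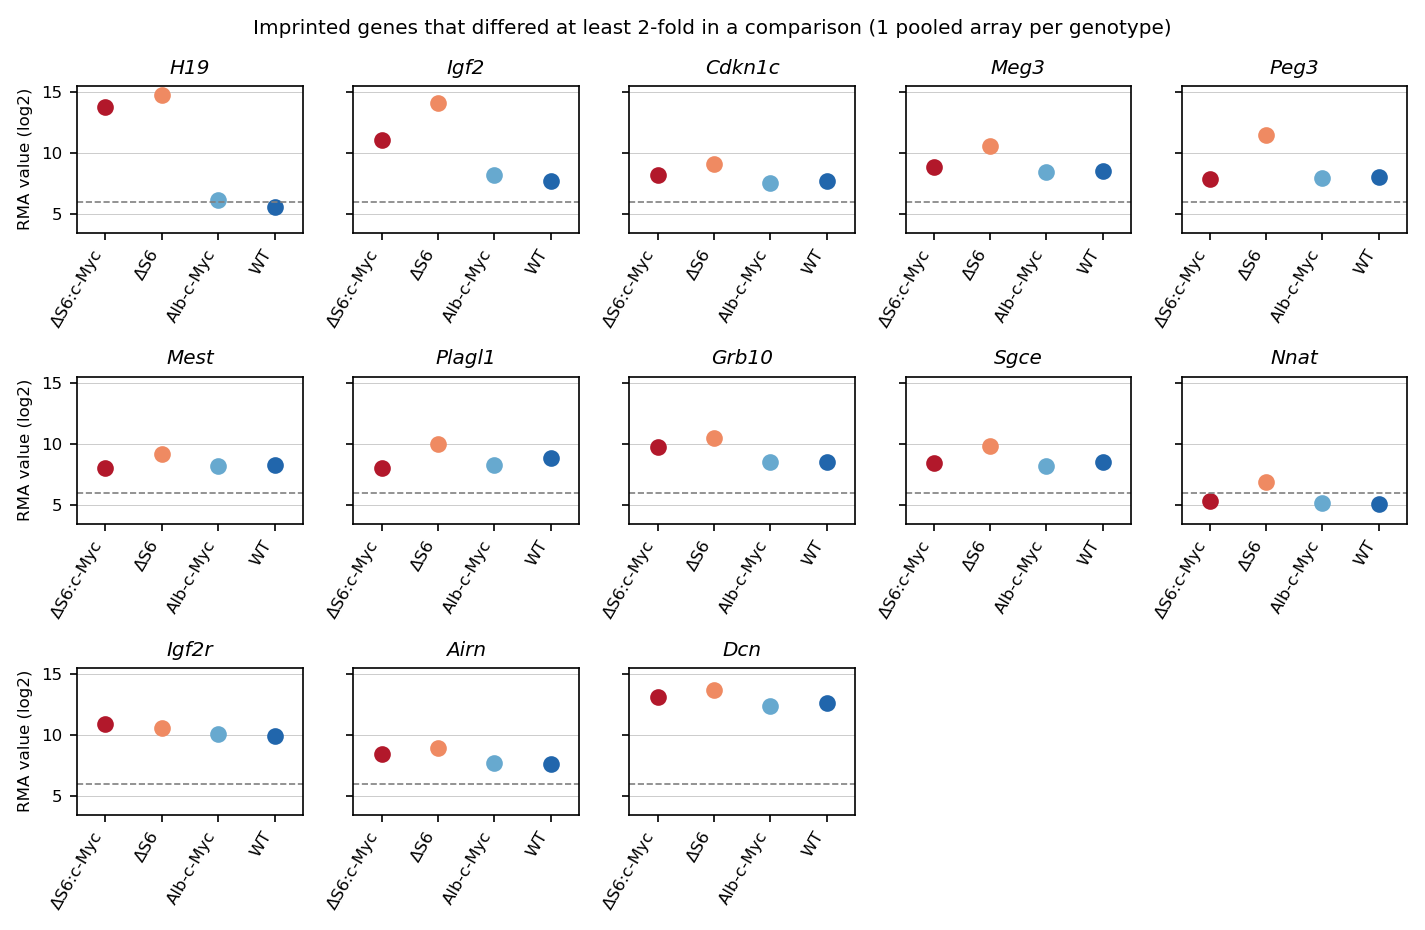
Deposited log2 RMA values of the 13 imprinted genes that differed at least 2-fold in any of 5 comparisons, 1 point per array of RNA pooled from 3 mice, with no error bars because each genotype has 1 array. The dashed line marks a log2 value of 6, below which signal and background were not told apart. ΔS6 holds the highest value for 12 of the genes, of which 11 entered as higher in ΔS6/WT, and ΔS6:c-Myc for Igf2r (10.92).

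H19 and Igf2 share enhancers and an imprinting control region, H19 being transcribed from the maternal and Igf2, a fetal growth factor, from the paternal chromosome. H19 had log2 values of 13.80 in ΔS6:c-Myc, 14.79 in ΔS6, 6.17 in Alb-c-Myc and 5.63 in WT. The arrays with Rps6 deleted thus gave values near the top of the scale and those with intact Rps6 gave values near the dim limit, below it in WT, so the log2 ratio of 9.17 in ΔS6/WT has an uncertain size. The ratio in ΔS6:c-Myc/Alb-c-Myc was 7.64. The ratio of ΔS6:c-Myc to ΔS6 was -0.99, just inside 2-fold. The annotation of the same probe set to Mir675 leaves the signal of the long transcript and its hairpin inseparable.

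Igf2 was at 11.06 in ΔS6:c-Myc, 14.07 in ΔS6, 8.18 in Alb-c-Myc and 7.70 in WT, all above the dim limit. ΔS6 exceeded WT by a log2 ratio of 6.36 (82.3-fold), rank 6 of all genes, and ΔS6:c-Myc exceeded Alb-c-Myc by 2.88 (7.37-fold), rank 26. In ΔS6:c-Myc/ΔS6 the ratio of Igf2 was -3.01 and that of H19, as given above, -0.99. The H19 values of both these arrays lie near the top of the scale, and the Igf2 value in ΔS6 lies between them. The sizes of these ratios are therefore uncertain, as is that of Igf2 in ΔS6/WT, and the 2 ratios were not compared with each other. The other Igf2 probe set read 5.91 in ΔS6:c-Myc, 7.48 in ΔS6, 5.39 in Alb-c-Myc and 5.40 in WT, with the 3 lower values dim and ratios of 2.08 in ΔS6/WT and -1.58 in ΔS6:c-Myc/ΔS6.

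At the Kcnq1 locus, on the same chromosome, the values differed among members. Cdkn1c, the cyclin-dependent kinase inhibitor p57Kip2 and a maternally expressed brake on growth, was at 8.24 in ΔS6:c-Myc, 9.13 in ΔS6, 7.53 in Alb-c-Myc and 7.76 in WT, a ratio of 1.38 in ΔS6/WT. Phlda2, which restrains placental growth, had a ratio of 0.77, within 2-fold. Kcnq1ot1, the paternally expressed noncoding RNA that silences genes of the locus in cis, had a ratio of 0.20 and was within 2-fold in each of the 5 comparisons on all of its 6 probe sets. Ascl2, a transcription factor of the placenta, had a ratio of -0.30. The only member of this locus past 2-fold in ΔS6 was Cdkn1c, read by a single probe set.

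The Dlk1-Dio3 locus encodes the paternally expressed Dlk1, a membrane protein with EGF-like repeats, and a chain of maternally expressed noncoding RNAs, Meg3, Rian and Mirg. Between the end of Dlk1 and the start of Dio3 lie 815893 bases with 58 annotated miRNA hairpins. Meg3 was at 8.86 in ΔS6:c-Myc, 10.61 in ΔS6, 8.43 in Alb-c-Myc and 8.51 in WT, so that ΔS6 alone stood out, with a ratio of 2.11 over WT and -1.75 for ΔS6:c-Myc/ΔS6. Rian read 6.70 in ΔS6:c-Myc, 7.34 in ΔS6, 5.97 in Alb-c-Myc and 6.46 in WT, a ratio of 0.87 in ΔS6/WT and 1.36 in ΔS6/Alb-c-Myc. Mirg had a ratio of 0.29 in ΔS6/WT. Dlk1 ran differently from the noncoding RNAs, with its highest value in ΔS6:c-Myc, at 6.90, against 6.40 in ΔS6, 6.08 in Alb-c-Myc and 6.05 in WT. Its ratios stayed within 2-fold, 0.35 in ΔS6/WT and 0.85 in ΔS6:c-Myc/WT.

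The probe sets of Meg3 and Rian fell into those that differed and those that did not. Of the 11 Meg3 probe sets, 5 were 2-fold or more higher in ΔS6/WT and 6 were within 2-fold, with ratios from -0.26 to 3.44 and a median of 1.00. Brightness did not separate them, since 1 of the 6 had a mean of 8.60 over the 4 arrays and a ratio of -0.26. The largest Meg3 ratio came from a probe set at 8.31 in ΔS6:c-Myc, 11.35 in ΔS6, 7.68 in Alb-c-Myc and 7.91 in WT. In ΔS6:c-Myc/Alb-c-Myc, 0 of the 11 were past 2-fold. Of 4 Rian probe sets, 1 was at least 2-fold higher in ΔS6/WT, with a ratio of 1.94, and the lowest had 0.02. Which transcripts of these genes each probe set reads was not analysed here.

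**Figure D2:**
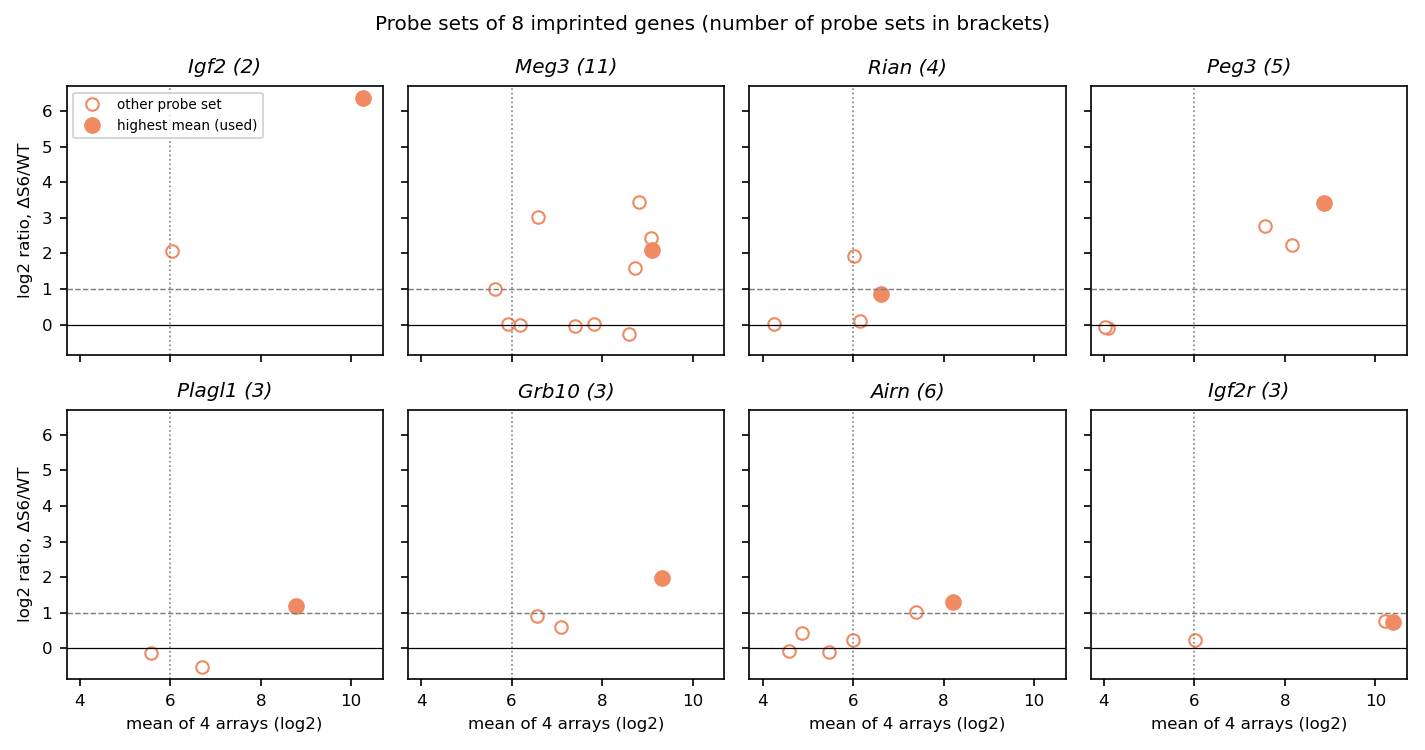
Log2 ratio of ΔS6/WT (vertical axis) against the mean log2 value over the 4 arrays (horizontal axis) for each probe set of 8 imprinted genes; filled points are the probe sets used as gene values, open points the others, and the dotted and dashed lines mark a mean of 6 and a ratio of 1. The 3 Peg3 probe sets with a mean of at least 6 all lie above the dashed line, while 1 of 3 Plagl1 probe sets does and the Meg3 probe sets spread from -0.26 to 3.44.

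Peg3, Mest and Plagl1 are paternally expressed growth genes outside those clusters. Peg3, a zinc finger protein, was at 7.91 in ΔS6:c-Myc, 11.49 in ΔS6, 7.97 in Alb-c-Myc and 8.09 in WT. ΔS6 exceeded WT by a ratio of 3.41 (10.6-fold), rank 88 of all genes, and the ratio of ΔS6:c-Myc to Alb-c-Myc was -0.062. The ΔS6 array stood alone, since ΔS6:c-Myc and Alb-c-Myc differed from WT by ratios of only -0.18 and -0.12. The 2 other bright Peg3 probe sets had ratios of 2.23 and 2.77 in ΔS6/WT, and 0.05 and -0.01 in ΔS6:c-Myc/Alb-c-Myc. Usp29 and Zim1, the other measured members of the locus, were below 6 on all 4 arrays.

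Mest, an enzyme-like protein of the alpha/beta hydrolase fold, was at 8.04 in ΔS6:c-Myc, 9.21 in ΔS6, 8.23 in Alb-c-Myc and 8.26 in WT. Its ratio was 0.95 in ΔS6/WT, inside 2-fold, and -1.17 in ΔS6:c-Myc/ΔS6. Copg2, a coat protein gene that overlaps Mest by 913 bases at their ends, was within 2-fold in all 5 comparisons, with 0.04 in ΔS6/WT. Plagl1 was at 8.06 in ΔS6:c-Myc, 10.01 in ΔS6, 8.27 in Alb-c-Myc and 8.83 in WT on its brightest probe set, with ratios of 1.18 in ΔS6/WT and -1.95 in ΔS6:c-Myc/ΔS6. The direction for Plagl1 depended on the probe set. Another bright one was at 6.59 in ΔS6:c-Myc, 6.41 in ΔS6, 6.84 in Alb-c-Myc and 6.93 in WT, a ratio of -0.52 in ΔS6/WT, and the remaining one was dim on all arrays with -0.12. The brightest is of a class (names ending in _x_at) whose probes can match other transcripts, so the value of Plagl1 is uncertain.

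Grb10, a maternally expressed adaptor that binds insulin and IGF receptors and restrains growth, was at 9.75 in ΔS6:c-Myc, 10.52 in ΔS6, 8.50 in Alb-c-Myc and 8.55 in WT. Both arrays with Rps6 deleted lay above both with intact Rps6, with ratios of 1.97 in ΔS6/WT and 1.25 in ΔS6:c-Myc/Alb-c-Myc. Its 2 other probe sets had the same direction with smaller ratios in ΔS6/WT, 0.61 and 0.90, and were within 2-fold in ΔS6:c-Myc/Alb-c-Myc as well, at 0.38 and 0.34. The first of them was highest in ΔS6:c-Myc, at 7.40, against 7.29 in ΔS6. Igf2r, the receptor that removes IGF2 by carrying it to lysosomes, was at 10.92 in ΔS6:c-Myc, 10.62 in ΔS6, 10.08 in Alb-c-Myc and 9.89 in WT. Igf2r was the 1 member of those that span at least 2-fold with its highest value in ΔS6:c-Myc, at a ratio of 1.02 over WT, while 13 of these 14 had theirs in ΔS6. The 14 include the 11 members chosen as higher in ΔS6/WT, so this tally is not a separate result. In ΔS6/WT Igf2r was within 2-fold, at 0.73. Its 2 other probe sets were within 2-fold in ΔS6:c-Myc/WT, at 0.89 and 0.25, so its place past 2-fold rests on 1 probe set.

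Airn, the paternally expressed antisense RNA that silences Igf2r on the same chromosome and overlaps that gene by 28396 bases, was at 8.44 in ΔS6:c-Myc, 8.98 in ΔS6, 7.76 in Alb-c-Myc and 7.68 in WT, with a ratio of 1.30 in ΔS6/WT. Of its 6 probe sets 2 were at least 2-fold higher and 4 were within 2-fold, 1 of them shared with Igf2r. Airn and Igf2r were thus each above WT on both arrays with Rps6 deleted. Airn had the larger ratio of the pair in ΔS6/WT, and Igf2r in ΔS6:c-Myc/WT, 1.02 against 0.76 for Airn.

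Single members of other loci made up the rest of the 11. Sgce, which encodes epsilon-sarcoglycan of the dystrophin-associated complex, was at 8.47 in ΔS6:c-Myc, 9.86 in ΔS6, 8.18 in Alb-c-Myc and 8.55 in WT, a ratio of 1.31 in ΔS6/WT. The other probe set of Sgce, dim in the mean, had -0.26. Peg10, which starts 101 bases from Sgce on the opposite strand, was below 6 on all arrays. Nnat, a small membrane protein known from the brain, was at 5.32 in ΔS6:c-Myc, 6.87 in ΔS6, 5.16 in Alb-c-Myc and 5.09 in WT, so only ΔS6 was above the dim limit and the ratio of 1.78 over WT has an uncertain size. Dcn, the matrix proteoglycan decorin, whose imprinting is known from mouse placenta, was at 13.12 in ΔS6:c-Myc, 13.68 in ΔS6, 12.36 in Alb-c-Myc and 12.63 in WT. Its ratio of 1.04 in ΔS6/WT lies just past 2-fold, and its other probe set had 0.35.

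**Figure D3:**
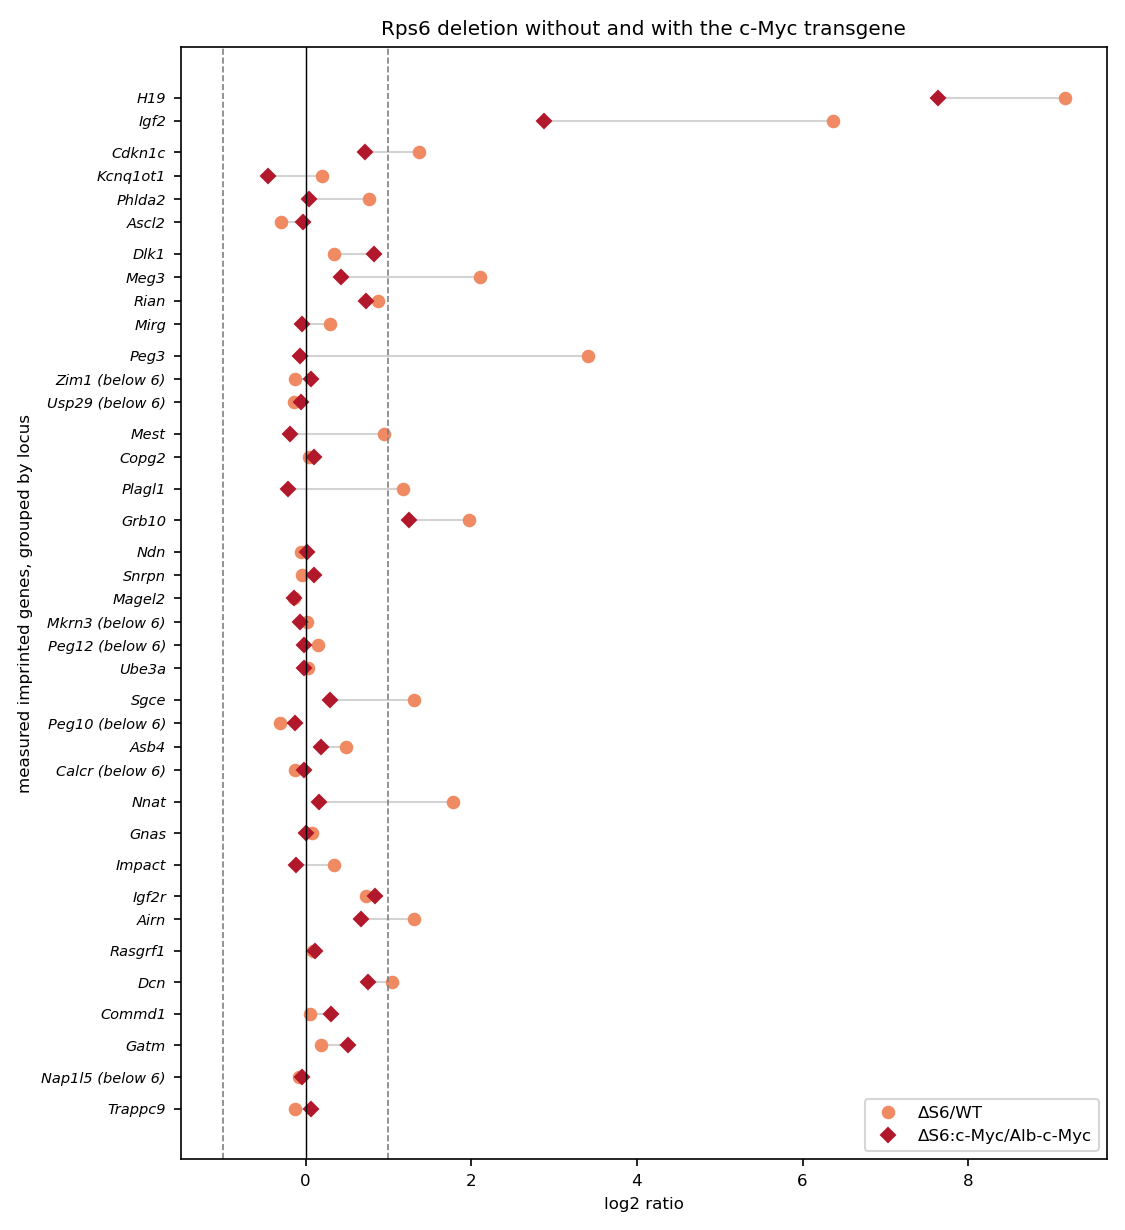
Log2 ratio of each of the 38 measured imprinted genes, grouped by locus, in ΔS6:c-Myc/Alb-c-Myc (red diamonds) and ΔS6/WT (orange circles), which share no array. Dashed lines mark 2-fold and genes marked below 6 were dim on all 4 arrays; the diamond of Peg3 lies at -0.062 and its circle at 3.41, while H19, Igf2 and Grb10 are past 1 in both.

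A further 18 members reached a log2 value of 6 and stayed within 2-fold in all 5 comparisons. The locus of Snrpn and Ube3a, known for Prader-Willi and Angelman syndromes in people, had 0 of 6 measured members past 2-fold in ΔS6/WT, with a median ratio of -0.01. In ΔS6/Alb-c-Myc it had 0 of 6 as well. Of all genes, 7.36% were higher and 2.52% lower in ΔS6/WT (7.11% and 2.18% in ΔS6/Alb-c-Myc), so 0 of 6 lies near these shares. The 6 include Mkrn3 and Peg12, which were dim on all arrays. Snrpn, an RNA-splicing protein gene, was at 11.96 in ΔS6:c-Myc, 11.68 in ΔS6, 11.85 in Alb-c-Myc and 11.73 in WT. Ube3a, a ubiquitin ligase, was between 10.69 and 10.72 on the 4 arrays. Gnas, the stimulatory G protein subunit, was between 13.41 and 13.51. These genes were bright and nearly level across the genotypes on their chosen probe sets. The remaining members within 2-fold in all 5 comparisons, with their ratios in ΔS6/WT, were Ndn at -0.05, Magel2 at -0.14, Asb4 at 0.48, Impact at 0.34, Rasgrf1 at 0.08, Commd1 at 0.06, Gatm at 0.19 and Trappc9 at -0.13. Zim1, Usp29, Mkrn3, Peg12, Peg10, Calcr and Nap1l5 were dim on all arrays, so the arrays give no measured change for these 7.

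Members were also counted by the parental chromosome that expresses them. Of 18 measured members known as maternally expressed, 5 were 2-fold or more higher in ΔS6/WT, and of 19 known as paternally expressed, 6 were, with median ratios of 0.39 and 0.20, where 7.36% of all genes were higher. In ΔS6/Alb-c-Myc 6 of the 18 and 6 of the 19 were higher (7.11% of all genes). In ΔS6:c-Myc/ΔS6, 1 of the 18 maternally and 6 of the 19 paternally expressed members were 2-fold or more lower, against 4.36% of all genes, a share near which the maternal count lies. The median ratios did not follow these counts, at -0.30 for the maternally and -0.13 for the paternally expressed members. The maternal count depends on the threshold, since H19 lay just inside it at -0.99. In ΔS6:c-Myc/WT, 3 of the 18 and 1 of the 19 were at least 2-fold higher (3.13% of all genes), and in ΔS6:c-Myc/Alb-c-Myc 2 of the 18 and 1 of the 19 were (2.14%). The parent of origin is that known for tissues in which each gene is imprinted, Gnas, which has transcripts of both kinds, was left out, and the difference between these counts was not tested.

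The 2 ratios that measure Rps6 deletion were then compared for each member. They do not stand for an equal extent of deletion, since the authors reported more recombination in ΔS6:c-Myc than in ΔS6 livers. Subtracting the log2 ratio of ΔS6/WT from that of ΔS6:c-Myc/Alb-c-Myc gave a difference of -1 or lower for 8 of the 38 members and of 1 or higher for 0, against 4.68% and 1.27% of all genes. The median difference was -0.11 over the members and 0.03 over all genes. Of the 11 members 2-fold or more higher in ΔS6/WT, 8 had ΔS6:c-Myc/WT ratios inside 2-fold, and 3, H19, Igf2 and Grb10, did not. All 11 had their highest value of the 4 arrays in ΔS6. They were chosen for a high ratio in ΔS6/WT, so neither count is a separate result. The same was not counted over all genes chosen in this way. Among Cdkn1c, Airn and Dcn, which are among the 8, the ΔS6:c-Myc/WT ratios were 0.49, 0.76 and 0.48, whereas those of Peg3 and Sgce were -0.18 and -0.08.

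**Figure D4:**
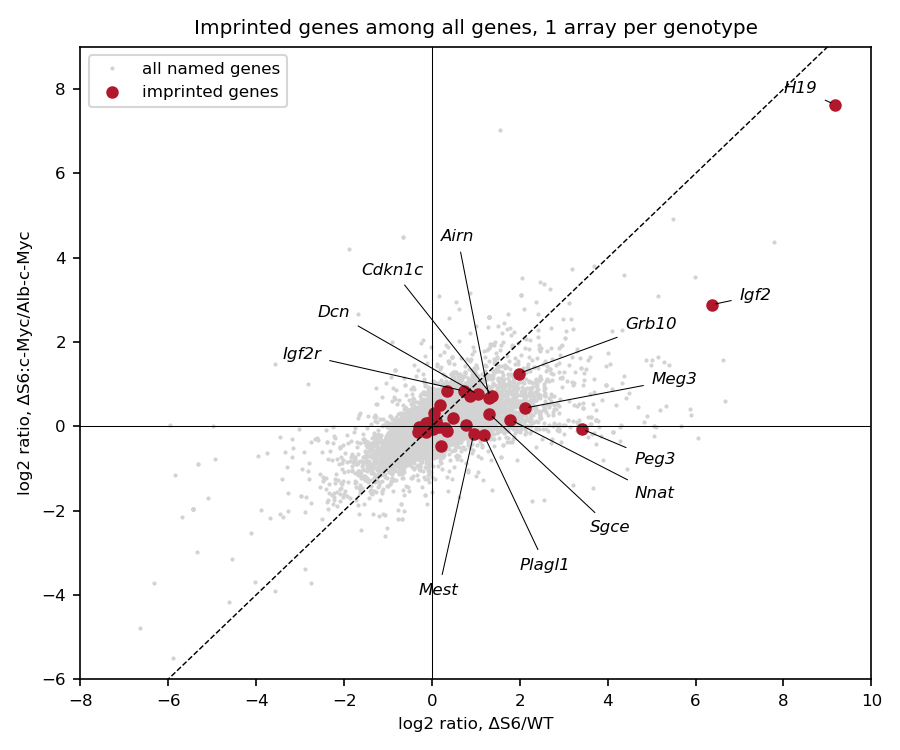
Log2 ratio of ΔS6:c-Myc/Alb-c-Myc (vertical axis) against that of ΔS6/WT (horizontal axis) for 19324 named genes (grey points) and 38 imprinted genes (red points), with the 13 genes of the plot by array labelled and equal ratios on the dashed diagonal. H19 lies at 9.17 and 7.64, with a dim WT value, and the 8 members that lie at least 1 below the diagonal are Igf2, Peg3, Meg3, Nnat, H19, Plagl1, Mest and Sgce.

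Markers of several cell types were also high in ΔS6. The 4 immature hepatocyte markers, which include Afp (8.11 in ΔS6:c-Myc, 13.26 in ΔS6, 6.54 in Alb-c-Myc and 6.64 in WT), were all 2-fold or more higher in ΔS6/WT, with linear sums of 1610 in ΔS6:c-Myc, 15100 in ΔS6, 488 in Alb-c-Myc and 477 in WT. Stellate cell and fibroblast markers, of cells that also make Dcn, were at least 2-fold higher in 6 of 9, with sums of 13700 in ΔS6:c-Myc, 30900 in ΔS6, 10600 in Alb-c-Myc and 9580 in WT. Bile duct and progenitor markers were higher in 6 of 6, with sums of 1360 in ΔS6:c-Myc, 20200 in ΔS6, 751 in Alb-c-Myc and 728 in WT, and Kupffer cell markers in 4 of 5, with sums of 9430, 25500, 5310 and 5770 on the arrays in that order. None of these marker genes of liver was below 6 on any array. Endothelial markers were past 2-fold in 0 of 5 in ΔS6/WT, with a median of 0.35. Of all genes, 7.36% were at least 2-fold higher in ΔS6/WT and 2.52% lower. The 11 members, which were chosen for a high ratio in ΔS6/WT, and the 4 marker sums above were highest in ΔS6. In ΔS6:c-Myc/WT, in which H19, Igf2 and Grb10 were past 2-fold, the markers past 2-fold upward were 4 of 4 for immature hepatocytes, 1 of 9 for stellate cells and fibroblasts, 3 of 6 for bile duct and progenitors and 1 of 5 for Kupffer cells. Of the 5 endothelial markers 0 were higher and 1, Lyve1, was lower, at -1.38. Of all genes, 3.13% were higher and 1.79% lower in that comparison. The part of these cells in the values of the imprinted genes was not tested. Pancreatic islets express several imprinted genes, and the 5 measured endocrine pancreas markers summed to 584 in ΔS6:c-Myc, 561 in ΔS6, 695 in Alb-c-Myc and 676 in WT, 0 of them past 2-fold in ΔS6/WT.

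Genes around the imprinted list were examined as 4 further lists. Of 16 measured genes of imprint control and DNA methylation, 2 were 2-fold or more higher in ΔS6/WT and 0 lower, with a median of 0.17, against 7.36% and 2.52% of all genes and a median of -0.05, so the count lies near the share of all genes. Uhrf1, which guides the maintenance methyltransferase to replicated DNA, was at 7.31 in ΔS6:c-Myc, 8.42 in ΔS6, 7.01 in Alb-c-Myc and 6.35 in WT, a ratio of 2.07 in ΔS6/WT and -1.12 in ΔS6:c-Myc/ΔS6. Dnmt1, that methyltransferase, was at 9.72 in ΔS6:c-Myc, 10.32 in ΔS6, 9.31 in Alb-c-Myc and 9.08 in WT, a ratio of 1.24. Ehmt2, a histone H3 lysine methyltransferase, had 0.64 and the insulator protein gene Ctcf 0.45, both within 2-fold.

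Of 15 measured genes of IGF signalling, 2 were 2-fold or more higher in ΔS6/WT and 2 were lower (7.36% and 2.52% of all genes), with a median of 0.26. Igfals, which holds IGFs in a stable complex in blood, was at 9.96 in ΔS6:c-Myc, 9.11 in ΔS6, 11.78 in Alb-c-Myc and 11.86 in WT, a ratio of -2.75. Insr, the insulin receptor, had -1.12, Igfbp7 1.21 and Igfbp1 1.04, the last 2 encoding binding proteins. Igfals and Insr were past 2-fold in ΔS6:c-Myc/WT as well, with -1.91 and -1.28. Of 22 measured imprinted genes that are not on the list of 42, 0 were past 2-fold in ΔS6/WT, with a median of 0.05. For a list of 22, this count is not far from the shares of all genes (7.36% higher and 2.52% lower). The ratios ran from -0.62 for Slc22a18 to 0.97 for Ppp1r9a. The difference between the 2 lists of imprinted genes was not tested.

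Genes beside the H19-Igf2 and Dlk1-Dio3 loci that are not imprinted were the last list. Of 13 such neighbours, 3 were 2-fold or more higher in ΔS6/WT and 0 lower (7.36% and 2.52% of all genes), with a median of 0.45. Degs2, an enzyme of sphingolipid synthesis, was at 6.65 in ΔS6:c-Myc, 9.56 in ΔS6, 6.60 in Alb-c-Myc and 6.67 in WT, a ratio of 2.89. Evl, an actin regulator, had a ratio of 2.09, and Lsp1, an actin-binding protein of white blood cells, had 1.69. Tnnt3, a muscle troponin gene, had 0.84. Mrpl23, a mitochondrial ribosomal protein gene next to H19 that was picked after its values were seen, was at 10.97 in ΔS6:c-Myc, 11.04 in ΔS6, 11.14 in Alb-c-Myc and 11.01 in WT.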

How the data were processed

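Total liver RNA was measured on 1 Affymetrix array per genotype. Each deposited value is the log2 expression of 1 probe set, for which the authors used RMA including a quantile step. RMA and affy are the tools in the submitters' processing notes, with versions not given in the sources used. Quantile normalization gives the arrays nearly the same distribution, so a shift of most genes at once would not be seen. Detection calls were not used here.

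The platform annotation, used for gene names, pairs 34958 of 45101 probe sets with 1 symbol, 932 with several and 9211 with none. Probe sets with several symbols were kept under each of them, as H19 needs. The brightest probe set of a gene, by its mean of all 4 arrays, stood for it. Log2 ratios were computed for 5 comparisons, and genes past 2-fold were counted, with no test, since there was 1 array per genotype. The number of arrays limits the precision. Between probe sets of 1 gene with a mean of at least 8 (3379 genes), ratios of ΔS6/WT had an SD of 0.274, which is not an error between animals.

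Members and lists were chosen with earlier results of these data known. All 42 members are accounted for, and a member is given on all 4 arrays where it reached 6 on 1 or more arrays and differed at least 2-fold in any comparison. At most 4 genes of each further list are named by the rule, those with the largest ratio in ΔS6/WT in either direction and a value of at least 6. Coordinates, promoters and miRNAs are from RefSeq on GRCm38.p6, in which all 42 members were matched. The counting steps were tested on simulated data. Alternatives were 2 other scalings, a filter on dim genes, 3 other probe set choices, thresholds of 1.5-fold and 4-fold, and Alb-c-Myc in place of WT. Python 3.11.15, numpy 2.4.6, pandas 2.3.3 and matplotlib 3.10.9 were used.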

Additional observations from a re-analysis of the deposited data

Results flagged for a closer look

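On the brightest probe sets of Peg3 and Plagl1, the ratio that measures Rps6 deletion had opposite signs with and without the c-Myc transgene. The log2 ratio of Peg3 was -0.062 in ΔS6:c-Myc/Alb-c-Myc and 3.41 in ΔS6/WT. That of Plagl1 was -0.21 in ΔS6:c-Myc/Alb-c-Myc and 1.18 in ΔS6/WT, and it was not the same on the other probe sets of Plagl1. Another bright Peg3 probe set had 0.05 in ΔS6:c-Myc/Alb-c-Myc and 2.23 in ΔS6/WT, the same sign in both. The negative ratios are smaller than the SD of 0.243 between probe sets of 1 gene in ΔS6:c-Myc/Alb-c-Myc, so nothing is read from their sign, each ratio compares 1 array with 1 array, and the difference between them was not tested.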

How the results depend on the processing

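Across the alternatives, 476 of 494 counts and medians of the lists and 360 of 398 single-gene ratios stayed within the tolerance, a factor of 1.5 for counts and the spread between probe sets for ratios. Some single-gene ratios could not move, so this tally is no measure of robustness. The filter on dim genes leaves these members unchanged, and H19, Cdkn1c, Mest and Nnat have 1 probe set each. With the mean of all probe sets, 29 single-gene ratios moved. Of the imprinted genes, 7 were higher in ΔS6/WT and 2 in ΔS6:c-Myc/WT with the mean of all probe sets (5.82% and 2.32% of all genes). The ratios in ΔS6/WT were then 4.22 for Igf2, 1.64 for Peg3, 1.21 for Meg3 and 1.16 for Grb10, but 0.70 for Dcn, 0.52 for Sgce, 0.47 for Airn and 0.18 for Plagl1. At 4-fold, 4 were higher in ΔS6/WT, 2 in ΔS6:c-Myc/WT, and 2 lower in ΔS6:c-Myc/ΔS6 (2.12%, 0.445% and 0.9% of all genes). At 1.5-fold, 1 was lower in ΔS6:c-Myc/WT, 11 were lower in ΔS6:c-Myc/ΔS6 and 9 were higher in ΔS6:c-Myc/Alb-c-Myc. Of all genes, 5.09%, 9.36% and 7.13% were, in that order, and the first count is no more than its share. With genes of at least 6 alone, the median of ΔS6:c-Myc/ΔS6 was -0.44. With _x_at and _s_at probe sets left out, Plagl1 turned to -0.52 in ΔS6/WT and 0.17 in ΔS6:c-Myc/ΔS6, since another probe set then stood for the gene. With probe sets of 1 symbol only, H19 had no value.

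For the 4 further lists, alternatives were added after seeing the data. With the mean of all probe sets, imprint control genes had 1 higher in both ΔS6/WT and ΔS6:c-Myc/WT, IGF signalling genes 1 higher and 1 lower in ΔS6/WT and 1 lower in ΔS6:c-Myc/ΔS6, and neighbours 0 higher in ΔS6:c-Myc/Alb-c-Myc. Of all genes, 5.82% were then higher and 2.24% lower in ΔS6/WT, and 2.32% higher in ΔS6:c-Myc/WT. In ΔS6:c-Myc/ΔS6 3.44% were lower, and in ΔS6:c-Myc/Alb-c-Myc 1.68% were higher. Without _x_at and _s_at probe sets, IGF signalling genes had 0 higher in ΔS6:c-Myc/WT and 1 lower in ΔS6:c-Myc/ΔS6, and neighbours 1 higher in ΔS6:c-Myc/WT. Of all genes, 3.03% were then higher in ΔS6:c-Myc/WT and 4.25% lower in ΔS6:c-Myc/ΔS6. Where no cause is given it was not tested. Dim values limit H19 in WT and Nnat on 3 arrays. No paired analysis was possible because each genotype has 1 array, and for the same reason leaving out a replicate was not an option.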

Other observations

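Some values lie outside the comparisons above and were picked after they were seen. Of the 31 imprinted genes with a log2 value of at least 6, the highest value was in ΔS6:c-Myc for 7, in ΔS6 for 20, in Alb-c-Myc for 2 and in WT for 2. Nnat passed this filter only through ΔS6, and the same tally was not made over all genes. Igf2bp3, an RNA-binding protein of fetal tissues that binds Igf2 mRNA, was at 10.26 in ΔS6:c-Myc, 9.82 in ΔS6, 9.40 in Alb-c-Myc and 8.83 in WT, so that its highest value, unlike that of Igf2, was in ΔS6:c-Myc. Igfbp3 and Igfbp5, which bind IGFs, were 2-fold or more lower in ΔS6:c-Myc/ΔS6, with ratios of -1.40 and -1.26.

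The probe sets of Snrpn were not level in ΔS6:c-Myc. The brightest had a ratio of 0.23 in ΔS6:c-Myc/WT, while 2 less bright ones, at means of 10.50 and 8.91, had ratios of 0.70 and 0.97, all within 2-fold.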
